A study of Mus musculus with 2 samples.

Results

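The 9 genes Ccl3, Ccl4, Ccl5, Ccl6, Ccl9, Ccl22, Ccl24, Cxcl2 and Cxcl16 encode chemokine ligands, and were taken by their symbols from a table of 32285 genes. Their levels were followed by cell class in single-cell transcriptomes of 2 mouse livers. The library labelled P180 (postnatal, per the labels) and the library labelled E18.5 (before birth, per the labels) came from 1 liver each, and without replicates the stages were compared by description alone. Both livers were described as tetraploid (4N): the hosts were Hhex knockout, and tdTomato-positive 4N embryonic stem cells had been injected into them as blastocysts, in the P180 animal as in the E18.5 animal. No diploid or unmanipulated liver is among the 2 libraries. With 0 tdTomato features among the genes, donor and host cells could not be told apart and every class below may mix them.

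Chemokines are small secreted proteins that guide leukocytes along concentration gradients by binding G protein-coupled receptors. CC and CXC ligands are named for the spacing of their first cysteines. In liver they are known for bringing neutrophils, monocytes and lymphocytes into the sinusoids, and myeloid cells make many of them within hours of an inflammatory stimulus through NF-κB. Ccl3 and Ccl5 bind Ccr1. Ccl6 and Ccl9 are ligands of Ccr1 described in rodents. Cxcl2 binds Cxcr2 on neutrophils, Cxcl16 is a membrane-bound ligand of Cxcr6, Ccl22 binds Ccr4 and Ccl24 binds Ccr3.

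The library labelled P180 held 90128038 UMIs (unique molecular identifiers, each standing for an RNA molecule) over 9771 barcodes, and the library labelled E18.5 held 37709972 over 9871. After filters and removal of likely doublets, 8847 cells labelled P180 and 4543 cells labelled E18.5 remained. The median barcode took 0.655% of its UMIs from mitochondrial genes under the P180 label and 16.7% under the E18.5 label. The cell makeup ran against the stage labels: erythroid-like cells, the main cells of a fetal liver, made up 78.4% of the cells labelled P180 and 1.54% of those labelled E18.5, while T cell-like and plasma cell-like clusters were found with the E18.5 label alone. Whether labels or files were exchanged was not tested, and an exchange would turn round every P180 over E18.5 ratio below. No cluster was named hepatocyte-like in either library. The libraries share 28 barcode sequences. Cell classes were named from marker genes and carry the suffix -like. The levels below are CPM (UMIs of a gene scaled to 1000000 UMIs of its class), with exact Poisson 95% intervals that cover counting error only, and not the spread between cells or animals.

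Of the 9 genes, 6 lie on mouse chromosome 11 in the mm10 build. Ccl5 (ENSMUSG00000035042, 83525778 to 83530518), Ccl9 (ENSMUSG00000019122, 83572919 to 83578636), Ccl6 (ENSMUSG00000018927, 83587882 to 83593087) and Ccl3 (ENSMUSG00000000982, 83647844 to 83649355) stand in this order on the minus strand, and Ccl4 (ENSMUSG00000018930, 83662584 to 83664683) follows on the plus strand. Cxcl16 (ENSMUSG00000018920, 70453983 to 70459984, minus strand) lies farther off on the same chromosome. Cxcl2 (ENSMUSG00000058427, 90903871 to 90905938, plus strand) and Ccl24 (ENSMUSG00000004814, 135569937 to 135573049, minus strand) are on chromosome 5, and Ccl22 (ENSMUSG00000031779, 94745590 to 94751699, plus strand) is on chromosome 8. Ccl6 overlaps E230016K23Rik and Cxcl16 overlaps Zmynd15, each on the other strand. Whether reads of these overlapping genes were kept apart by strand was not checked.

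Promoter sequence is shown for Cxcl2 and Ccl6, whose levels followed each other over clusters, and for Ccl9, the neighbour of Ccl6 on chromosome 11, whose levels followed Ccl6 (r = 0.56) and Cxcl2 (r = 0.62) less closely than these followed each other (r = 0.97). Each is the 250 bases before the RefSeq transcription start (GRCm38.p6), 5′ to 3′ on the gene's strand. Capitals mark matches to the NF-κB consensus or to TATAAA on either strand, and matches that overlap are joined.
Cxcl2 (chr5:90903649-90903898, plus strand): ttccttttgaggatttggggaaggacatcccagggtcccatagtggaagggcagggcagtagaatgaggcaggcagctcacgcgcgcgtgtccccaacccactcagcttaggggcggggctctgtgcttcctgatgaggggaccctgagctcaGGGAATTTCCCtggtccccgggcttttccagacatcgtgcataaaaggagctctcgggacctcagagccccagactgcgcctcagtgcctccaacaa
Ccl6 (chr11:83593088-83593337, minus strand): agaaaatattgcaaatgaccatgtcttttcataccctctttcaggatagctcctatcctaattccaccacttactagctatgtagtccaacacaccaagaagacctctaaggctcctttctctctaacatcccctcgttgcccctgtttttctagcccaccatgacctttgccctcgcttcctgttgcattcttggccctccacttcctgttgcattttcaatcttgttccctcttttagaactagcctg
Ccl9 (chr11:83578637-83578886, minus strand): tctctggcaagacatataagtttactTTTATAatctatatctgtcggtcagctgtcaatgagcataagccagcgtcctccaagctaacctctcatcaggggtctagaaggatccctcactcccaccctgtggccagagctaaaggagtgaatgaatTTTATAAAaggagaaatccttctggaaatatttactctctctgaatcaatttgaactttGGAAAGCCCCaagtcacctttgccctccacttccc

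The Cxcl2 promoter held overlapping matches to the NF-κB consensus, 97 and 96 bases before the start. The Ccl9 promoter held a match to it 35 bases before the start and matches to TATAAA at 224, 94 and 92 bases, while neither motif matched in the 250 bases of Ccl6. Neither motif matched in the promoters of Ccl3 and Ccl22, which were read in the same way and are not shown. Of 32841 mouse promoters of the same length in that RefSeq table, 7.25% held the NF-κB consensus and 12.4% held TATAAA. These are matches of letters and say nothing on binding.

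Across classes of the library labelled E18.5, Ccl5 was highest in cytotoxic lymphocytes, Ccl3 and Ccl4 were high in both lymphoid and myeloid classes, Cxcl2 and Ccl6 were highest in neutrophil-like and Ccl9 in monocyte-like cells, and Cxcl16 and Ccl24 were highest in macrophage-like cells. Ccl22 was nearly all in a small number of dendritic-like cells. In the library labelled P180 most levels were lower, and monocyte-like cells had the highest level of 7 of the 9 genes among classes with at least 50 cells. Of these leads, that of Ccl22 rested on 2 of 223 cells, that of Ccl5 on 9 cells and that of Ccl24 on 14 UMIs. A neutrophil-like cluster of 59 cells had more Cxcl2, Ccl6 and Ccl3 (3733, 1501 and 701 CPM) than monocyte-like cells (373, 159 and 460 CPM). It had 0 UMIs of Ccl5, Ccl9, Ccl22 and Ccl24. Those monocyte-like cells were a single cluster of 223 cells led by Lyz2 and Plac8 that held 3 monocyte and 3 neutrophil markers among its 50 leading genes, and it took the class with more markers among its 10 leading genes.

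**Figure D1:**
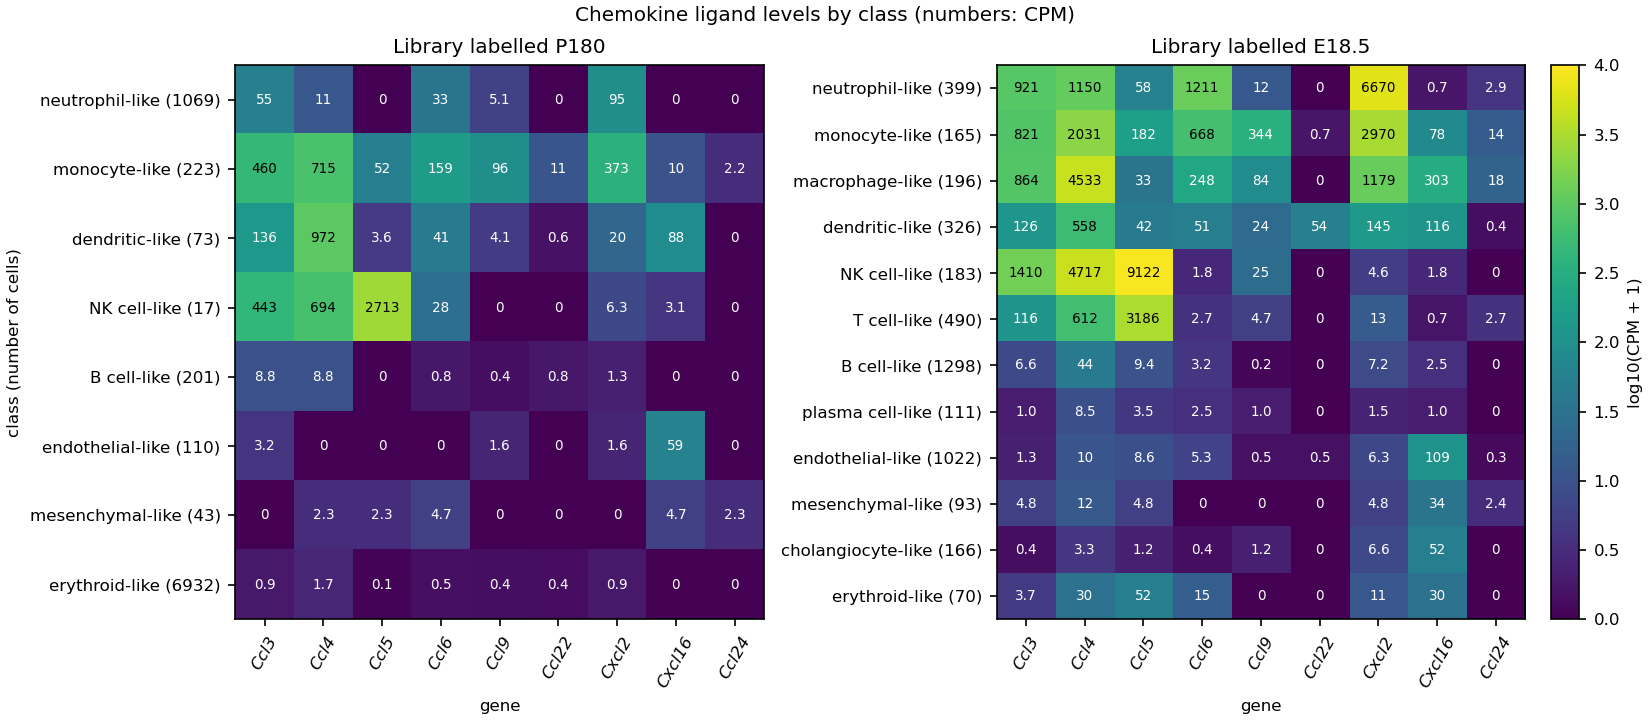
Level of each ligand (columns) in each class (rows, with the number of cells) in the library labelled P180 on the left and the library labelled E18.5 on the right; numbers are CPM and colour is log10(CPM + 1). Ccl5 is brightest in NK cell-like cells (2713 CPM labelled P180, 9122 CPM labelled E18.5), and Cxcl2 in neutrophil-like cells labelled E18.5 (6670 CPM).

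Ccl5 (RANTES), a ligand of effector T cells and NK cells, was the gene most restricted to lymphocytes. In the library labelled E18.5 its level was 9122 CPM (8943 to 9304) in NK cell-like cells and 3186 CPM (3122 to 3250) in T cell-like cells, and these classes held 49.4% and 47.0% of that library's Ccl5 UMIs. A Ccl5 UMI was found in 182 of 183 NK cell-like cells (99.5%) and 272 of 490 T cell-like cells (55.5%), against 3 of 166 cholangiocyte-like cells (1.81%), bile duct cells that should lack it, where the median cell had 5816, 5371.5 and 10526 UMIs. Thinning each cell to 1000 UMIs gave 96.7%, 45.7% and 0% (0 of 164 cells, which allows up to 1.83%). The T cell-like clusters differed widely, with 7053 CPM in cluster 9, 1910 CPM in cluster 15 and 1119 CPM in cluster 7. Cluster 9 held 10 T cell markers among its 50 leading genes, but 0 among its first 10, where the NK cell marker Gzma stood. With cluster 9 left out, a choice made after its values were seen, the T cell-like level was 1390 CPM (1339 to 1442), with 14.02% of the library's Ccl5 UMIs. NK cell-like cluster 17 also had the T cell gene Cd3g among its leading genes, and had 9300.3 CPM of Ccl5, against 8858 CPM in cluster 19. In the library labelled P180, 17 NK cell-like cells held 864 of the 1208 Ccl5 UMIs (71.5%), at 2713 CPM (2536 to 2901). The next class was monocyte-like, with 51.7 CPM (46.2 to 57.6), but its 325 UMIs were in 9 of 223 cells and 1 cell held 163 of them. Over the 46 clusters with at least 30 cells of both libraries, the genes whose log2(CPM + 10) followed Ccl5 most closely were Ms4a4b, Tbx21 (the transcription factor T-bet) and Gm2682, with Pearson r of 0.96, 0.94 and 0.93. Such correlations describe clusters of 2 libraries that share depth and cell makeup, and have no test.

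Ccl3 and Ccl4 (MIP-1α and MIP-1β), neighbours on chromosome 11, were shared between lymphoid and myeloid cells. With the E18.5 label, Ccl3 was 1410 CPM (1340 to 1482) in NK cell-like cells, 921 CPM (871 to 974) in neutrophil-like, 864 CPM (817 to 912) in macrophage-like and 821 CPM (774 to 870) in monocyte-like cells. Among the last 3, neighbours in this order did not differ beyond counting error, but the neutrophil-like and monocyte-like intervals did not overlap. Ccl4 was 4717 CPM (4589 to 4848) in NK cell-like cells and 4533 CPM (4426 to 4643) in macrophage-like cells, whose intervals overlap, then 2031 CPM in monocyte-like, 1150 CPM in neutrophil-like, 612 CPM in T cell-like (135 CPM without cluster 9) and 558 CPM in dendritic-like cells. With the P180 label, Ccl3 was highest in monocyte-like cells at 460 CPM (443 to 477), and Ccl4 in dendritic-like cells at 972 CPM (926 to 1020), above its 715 CPM (694 to 736) in monocyte-like cells. Background stayed low: 0.602% of cholangiocyte-like cells labelled E18.5 had a Ccl3 UMI and 4.22% a Ccl4 UMI, and in erythroid-like cells labelled P180 these shares were 0.563% and 1.05%, at a median depth of 5238.5 UMIs.

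Ccl3 and Ccl4 were also found in the same cells. With cells thinned to 1000 UMIs, Ccl4 was found in 89.2% of the 74 NK cell-like cells labelled E18.5 that had a Ccl3 UMI and in 50.5% of the 109 that had none. In macrophage-like cells these shares were 84.5% of 71 cells and 40.8% of 120, in monocyte-like cells 58.5% of 65 and 21.0% of 100, and in neutrophil-like cells 37.9% of 132 and 13.5% of 266. In monocyte-like cells labelled P180 Ccl4 was found in 26.8% of 71 cells with Ccl3 (16.9 to 38.6%) and 16.4% of 152 without (10.9 to 23.3%), intervals that overlap. Over the 46 clusters each was the gene most like the other (r = 0.93). The transcripts were uneven between cells: the 20 macrophage-like cells labelled E18.5 with most Ccl4 held 47.6% of its UMIs in that class, and the top 22 monocyte-like cells labelled P180 held 68.8%.

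Cxcl2 (MIP-2), which draws neutrophils, and Ccl6 were led by neutrophil-like cells with the E18.5 label. Cxcl2 was 6670 CPM (6533 to 6808) there, 2970 CPM (2880 to 3062) in monocyte-like, 1179 CPM (1125 to 1236) in macrophage-like and 145 CPM (134 to 156) in dendritic-like cells, and each step in this order exceeded counting error. Ccl6 was 1211 CPM (1154 to 1271) in neutrophil-like, 668 CPM (626 to 712) in monocyte-like and 248 CPM (224 to 275) in macrophage-like cells. After thinning, 69.8% of neutrophil-like cells labelled E18.5 had a Cxcl2 UMI, against 1.02% of T cell-like cells (unthinned 76.7% and 3.88%, at median depths of 2866 and 5371.5 UMIs). For Ccl6 the thinned shares were 64.1% of neutrophil-like cells and 0% of cholangiocyte-like cells. The highest P180 class was monocyte-like for both genes, with 373 CPM (358 to 388) of Cxcl2 and 159 CPM (149 to 169) of Ccl6, and neutrophil-like cells as a whole had 95.1 CPM and 33.3 CPM. Over the 46 clusters Ccl6 was most like Nlrp3, Il1b and Cxcl2 (r of 0.98, 0.98 and 0.97), and Cxcl2 most like Nlrp3, Ccl6 and Cd300a (r of 0.98, 0.97 and 0.95). Nlrp3 is the sensor of an inflammasome and Il1b encodes the cytokine that inflammasomes release. Within the neutrophil-like cells labelled E18.5, by contrast, cells with Ccl6 had Cxcl2 in 72.9% of 255 cells, and cells without it in 64.3% of 143, after thinning.

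Ccl9 (MIP-1γ) was led by monocyte-like cells in both libraries, at 95.9 CPM (88.4 to 104) under the P180 label and 344 CPM (314 to 376) under the E18.5 label. These cells held 72.2% of all Ccl9 UMIs labelled P180 and 60.8% of those labelled E18.5. Macrophage-like cells followed with the E18.5 label at 83.7 CPM (69.6 to 99.7). Neutrophil-like cells, which carried so much Ccl6, had 5.14 CPM (4.21 to 6.20) of Ccl9 with the P180 label and 11.7 CPM (6.71 to 19.1) with the E18.5 label. In the P180 library 104 of the 108 neutrophil-like UMIs lay in the Elane-led cluster 18, of neutrophil precursors, at 18.7 CPM. An unnamed cluster labelled P180, cluster 20, led by Spp1 and Apoe and with Mpo, of 96 cells, held 78.2 CPM (63.5 to 95.3). The genes most like Ccl9 were Ticam2, Ms4a6c and Gm44751 (r of 0.83, 0.82 and 0.81).

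Cxcl16, the membrane-bound ligand, had a pattern of its own that reached beyond leukocytes. In the library labelled E18.5 it was 303 CPM (276 to 332) in macrophage-like cells, 116 CPM (106 to 126) in dendritic-like and 109 CPM (99.0 to 120) in endothelial-like cells, then 77.8 CPM (63.8 to 94.0) in monocyte-like and 51.7 CPM (43.0 to 61.6) in cholangiocyte-like cells. The dendritic-like and endothelial-like levels did not differ beyond counting error. Endothelial-like cells held 432 of the library's 1728 Cxcl16 UMIs, spread thinly: 310 of 1022 cells had one, with at most 4 in a cell, and the 3 endothelial-like clusters had 98.8 to 118 CPM. Neutrophil-like cells, so rich in Cxcl2, had 0.734 CPM, from 1 UMI. Of the macrophage-like clusters, cluster 11, led by C1qa and C1qb, had 357 CPM (325 to 392), and cluster 21, of 35 cells led by Negr1 and Fcgr4, had 12.9 CPM (2.66 to 37.6, 3 UMIs). In the library labelled P180, dendritic-like cells had 88.2 CPM (74.6 to 104) and endothelial-like cells 59.3 CPM (41.7 to 81.7), with overlapping intervals, and erythroid-like cells had 0 UMIs in 6932 cells, which allows a share of up to 0.0433%. T cell-like cells labelled E18.5, the background for this gene, had a Cxcl16 UMI in 0.408% of cells. The genes most like Cxcl16 were Sdc3, Cttnbp2nl and Frmd4b (r of 0.90, 0.89 and 0.87).

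Ccl22, a ligand that mature dendritic cells are known to release and that draws regulatory and helper T cells through Ccr4, was confined to few cells. With the E18.5 label, 267 of 270 UMIs were in dendritic-like cells (54.3 CPM, 47.9 to 61.2), in 19 of 326 cells, and 1 cell held 143 UMIs. No Ccl22 UMI was found in 166 cholangiocyte-like cells, which allows a share of up to 1.81%. Dendritic-like cluster 14 held 220 of the UMIs in 15 of 142 cells. There, Ccr7, the receptor that takes mature dendritic cells to lymph nodes, was found in 10 of the 15 cells with Ccl22 (66.7%) and 14 of the 127 without it. Il4i1 was found in 86.7% and 12.6%, Fscn1, an actin-bundling protein of mature dendritic cells, in 46.7% and 4.72%, and Cacnb3 in 53.3% and 3.15%. All 8 genes of a list for mature dendritic cells were more frequent in the cells with Ccl22, at median depths of 11428 and 10337 UMIs, the smallest gap being Samsn1, in 9 of 15 and 54 of 127 cells. With the P180 label, dendritic-like cells had 1 Ccl22 UMI, and 68 of the 87 UMIs of the library were in 2 monocyte-like cells, 39 of them in 1 cell. The 16 UMIs in erythroid-like cells lay in 16 of 6932 cells. The genes most like Ccl22 over clusters were Bcl2l14, Cd209a and Clec10a (r of 0.90, 0.86 and 0.84), from 357 UMIs in all. Cluster 14 held 220 of these UMIs, and Cd209a is among the markers that named it. The likeness may thus describe that cluster more than the cells with Ccl22.

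**Figure D2:**
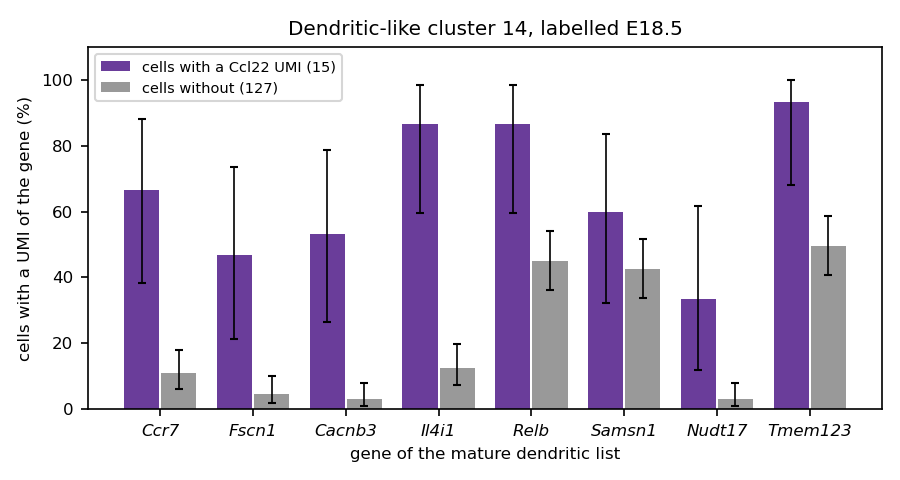
Share of cells (%) with a UMI of each gene of a mature dendritic list in dendritic-like cluster 14 of the library labelled E18.5, for the 15 cells with a Ccl22 UMI and the 127 cells without; error bars are exact binomial 95% intervals. Il4i1 stands at 86.7% with Ccl22 and 12.6% without, and Fscn1 at 46.7% and 4.72%.

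Ccl24 (eotaxin-2), which draws eosinophils, was rare. The library labelled P180 held 15 UMIs, 14 of them in monocyte-like cells (2.23 CPM, 1.22 to 3.74). The library labelled E18.5 held 61, with 17.5 CPM (11.5 to 25.7) in macrophage-like and 13.7 CPM (8.24 to 21.4) in monocyte-like cells, which did not differ beyond counting error. All 26 macrophage-like UMIs were in cluster 11. Trem2 and Ccl2 were among its most alike genes (r of 0.84 and 0.83), from 76 UMIs in all.

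Between the libraries, 6 classes had at least 50 cells in both. A ratio was taken for each gene that reached 50 UMIs in either library, and is called lower or higher when the level labelled P180 is at least 2-fold below or above that labelled E18.5. Over the 6 classes there were 26 such ratios, of which 19 were lower, 1 was higher and 6 lay between. Of all genes that reached the minimum, 7.59% to 18.2% were lower and 2.34% to 35.9% higher, by class. The same genes recur over classes of 1 pair of libraries, so the ratios are not independent. Median depth differed in the same classes, at 16437 UMIs in neutrophil-like cells labelled P180 and 2866 in those labelled E18.5, and 25093 and 8170 in monocyte-like cells, and the part of depth in these ratios was not tested. With a mitochondrial limit of 10% in place of 25%, 11 of the 26 ratios stayed within their intervals, 14 moved further and 1 changed sign, with 17 lower and 1 higher.

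**Figure D3:**
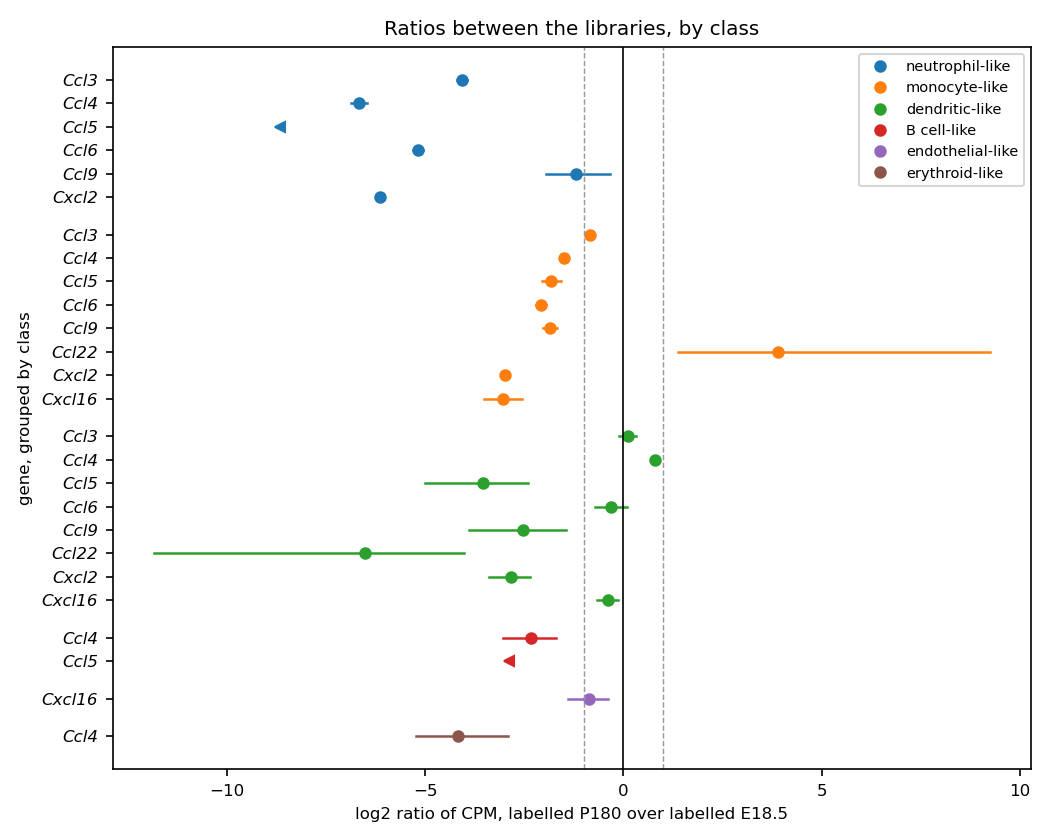
Log2 ratio of CPM, labelled P180 over labelled E18.5, for each ligand that reached 50 UMIs in a library, by class (colours). Points are ratios, lines exact 95% intervals for counting error, triangles limits for genes with no UMI labelled P180 (the ratio is at or below the triangle), and dashed lines 2-fold. All 6 neutrophil-like points lie left of the lower dashed line, and the right-most point is Ccl22 in monocyte-like cells at 3.91.

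In neutrophil-like cells, 6 of the 9 genes reached the minimum and all 6 were lower, where 18.1% of all 9621 genes that reached it were lower and 35.9% higher. The median log2 ratio of the 6 was -5.66, against 0.46 over those genes. Cxcl2 was 95.1 CPM (91.0 to 99.4) with the P180 label and 6670 CPM with the E18.5 label, a log2 ratio of -6.13. Ccl4 had 11.3 CPM and 1150 CPM, with a log2 ratio of -6.67, Ccl6 had 33.3 CPM and 1211 CPM (-5.18), and Ccl3 had 54.8 CPM and 921 CPM (-4.07). Ccl5 had 0 UMIs of 21029933 with the P180 label (up to 0.143 CPM) and 79 UMIs with the E18.5 label. With 3 counts over the class in place of 0 it was 407-fold lower. The 95% interval of the ratio gave at least 323-fold. Of those 79 UMIs 38 were in 1 of 399 cells, and without it the 41 left did not reach the minimum, so the call ended. Ccl9 had a log2 ratio of -1.19 (-1.96 to -0.34), which became -0.67 without the cell with most Ccl9 UMIs in each library, so its call ended.

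The neutrophil-like clusters differed in their leading genes between the libraries. With the P180 label, 409, 304, 155 and 142 of the 1069 cells lay in clusters 9, 13, 17 and 18. Clusters 9 and 17 were led by the granule gene Ngp, cluster 13 by Stfa2 and cluster 18 by the precursor gene Elane. Cluster 13 also had Retnlg, a gene of mature neutrophils, among its 15 leading genes, but not Il1b. Cluster 23, of 59 cells, was the P180 cluster that had both Retnlg and Il1b there. With the E18.5 label, 379 of 399 cells lay in cluster 4, which has both genes there. Between these Retnlg and Il1b clusters, Ccl6 was 1501 CPM (1357 to 1656) labelled P180 and 1440 CPM (1371 to 1512) labelled E18.5, a log2 ratio of 0.06 (-0.10 to 0.22), and was found in 93.2% of 59 and 85.0% of 379 cells. Cxcl2 was 3733 CPM (3504 to 3974) and 7902 CPM (7739 to 8067), at -1.08 (-1.18 to -0.99), and was found in 55.9% and 78.4% of cells. Ccl3 was 701 CPM and 1043 CPM (-0.57, -0.80 to -0.35). Ccl4 was 227 CPM, from 60 UMIs in 4 cells, and 1369 CPM, at -2.59 (-2.99 to -2.22). The receptors Cxcr2 and Ccr1 had log2 ratios of -0.90 and -0.20 there, and Il1b -1.26. Ccl9 had 0 UMIs and 12 UMIs. These clusters were chosen after the values were seen, Il1b is among the genes that chose them and follows Ccl6 and Cxcl2 closely, and they describe 1 liver each.

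**Figure D4:**
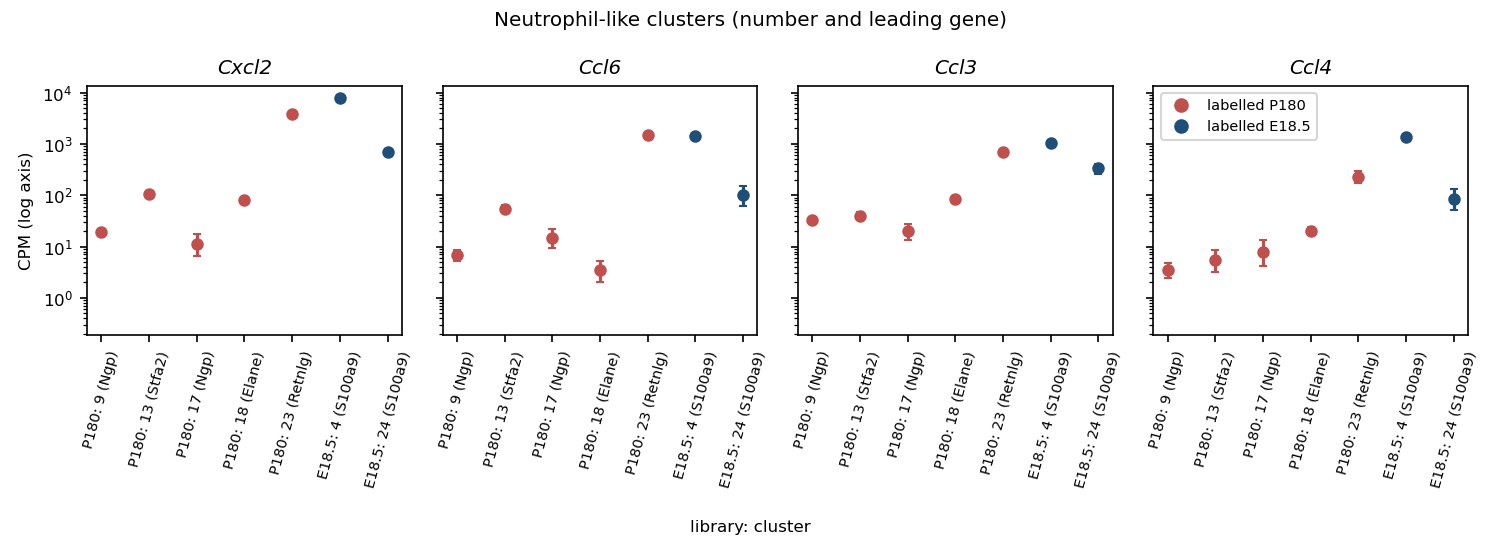
Levels (CPM, log axis) of Cxcl2, Ccl6, Ccl3 and Ccl4 in each neutrophil-like cluster, labelled P180 (left, red) and labelled E18.5 (right, blue), named by number and leading gene; bars are exact Poisson 95% intervals. Cluster 23 labelled P180 stands above the other P180 clusters for all 4 genes, and for Ccl6 it is level with cluster 4 labelled E18.5 (1501 and 1440 CPM).

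In monocyte-like cells, 8 of the 9 genes reached the minimum. 6 were lower, 1 was higher and Ccl3 lay between, where 9.03% of 8713 genes were lower and 27.8% higher, and the median log2 ratio was -1.83 against 0.41 over those genes. Cxcl2 was 373 CPM labelled P180 and 2970 CPM labelled E18.5 (log2 ratio -2.99, -3.07 to -2.92). Ccl6 had 159 CPM and 668 CPM (-2.07), Ccl9 95.9 CPM and 344 CPM (-1.84), Ccl4 715 CPM and 2031 CPM (-1.51) and Ccl3 460 CPM and 821 CPM (-0.84). The call of Ccl4 ended with a mitochondrial limit of 10% (-0.80) and with no minimum of genes (-0.73). Cxcl16 had 9.54 CPM and 77.8 CPM (-3.03), but this turned to 0.59 with a mitochondrial limit of 10% and 0.47 with no minimum of genes per barcode. Ccl5 had 51.7 CPM and 182 CPM (-1.82), and turned to 5.66 with no minimum of genes. The single higher gene was Ccl22, with 10.8 CPM and 0.721 CPM (3.91, 1.38 to 9.23), which rests on the 2 cells above: without the cell with most UMIs it no longer reached the minimum. With no mitochondrial limit its log2 ratio was -0.75, at a level labelled P180 below 0.90 CPM, too low to give a direction. If the cluster labelled P180 with equal numbers of monocyte and neutrophil markers is left unnamed, no monocyte-like comparison remains.

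In dendritic-like cells, 8 of the 9 genes reached the minimum, with 4 lower and none higher, where 7.59% of 7940 genes were lower and 2.34% higher. The lower genes were Ccl22 with 0.592 CPM labelled P180 and 54.3 CPM labelled E18.5, Ccl5 with 3.55 CPM and 41.7 CPM, Cxcl2 with 20.1 CPM and 145 CPM, and Ccl9 with 4.14 CPM and 24.2 CPM. Their log2 ratios were -6.52, -3.55, -2.85 and -2.54. Without the cell with most UMIs in each library, that of Cxcl2 was -6.68 and that of Ccl9 -5.16, and Ccl22 had 0 UMIs and 124 UMIs, which gives -3.83 or lower (against 3 counts). Ccl3, Ccl4, Ccl6 and Cxcl16 lay between, Ccl4 with 972 CPM and 558 CPM (0.80, 0.71 to 0.89) and Cxcl16 with 88.2 CPM and 116 CPM (-0.39, -0.66 to -0.13). The class was 1 cluster of 73 cells with the P180 label and 3 clusters with the E18.5 label, and the cluster that held most Ccl22, Ccl5, Cxcl2 and Ccl9 there was cluster 14.

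The other 3 classes had few ratios. In B cell-like cells Ccl4 and Ccl5 were lower, where 18.2% of 8639 genes were lower and 23.5% higher. Ccl4 was 8.82 CPM labelled P180 and 44.4 CPM labelled E18.5, and Ccl5 had 0 UMIs and 61 UMIs, at least 7.46-fold lower (against 3 counts over the class). Those 61 UMIs lay in 52 of 1298 cells. Their level, 9.40 CPM (7.19 to 12.1), did not differ beyond counting error from the 8.58 CPM (5.94 to 12.0) of endothelial-like cells labelled E18.5. A Ccl4 UMI was found in 3.98% of B cell-like cells labelled P180 and 8.63% of those labelled E18.5, against 4.22% of cholangiocyte-like cells labelled E18.5, and after thinning in 0%, 2.16% and 0%, where a count of 0 allows up to 1.52% of B cell-like cells labelled P180 and 1.83% of cholangiocyte-like cells. In endothelial-like cells Cxcl16 alone reached the minimum, at a log2 ratio of -0.88 (-1.41 to -0.39) that lay between the limits and was -1.08, a lower call, without the cell with most UMIs in each library, where 10.1% of 8252 genes were lower and 4.82% higher. In erythroid-like cells Ccl4 alone did, and was lower with 1.66 CPM labelled P180 and 29.8 CPM labelled E18.5, where 14.1% of 8333 genes were lower and 27.4% higher. That E18.5 level is 8 UMIs, 6 of them in 1 of 70 cells.

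Genes of an early inflammatory response, a list of 10 with Fos, Jun, Egr1, Nfkbia, Il1b, Tnf, Tnfaip3, Ier3, Nlrp3 and Cd14, was lower in part of the same classes. In neutrophil-like cells 8 of the 10 were lower and none higher, with a median log2 ratio of -1.92, and the summed level was 2584 CPM labelled P180 and 13967 CPM labelled E18.5. In monocyte-like cells 8 of 10 were lower and none higher (median -1.50), with sums of 5788 CPM and 13837 CPM. In dendritic-like cells 2 of the 9 that reached the minimum were lower and none higher (median -0.45), with sums of 4534 CPM and 5382 CPM. In B cell-like cells 4 of 7 were lower and Ier3 was higher, and in endothelial-like cells 2 of 6 were lower and none higher. In erythroid-like cells, where Ccl4 was lower, Fos and Egr1 were lower and Nfkbia and Ier3 higher, of 6 (median 0.40, against 0.48 over all genes that reached the minimum). The shares of all genes called in each class are those given above. Fos, which dissociation of tissue is known to raise, was 244 CPM and 4042 CPM in neutrophil-like cells, and 1372 CPM and 1628 CPM in dendritic-like cells. The part of this response in the ligand levels was not tested.

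The receptors of these ligands did not all follow them. In neutrophil-like cells Cxcr2 and Ccr1 reached the minimum and both were lower, where 18.1% of 9621 genes were lower and 35.9% higher. Cxcr2 was 91.3 CPM labelled P180 and 671 CPM labelled E18.5, and Ccr1 71.2 CPM and 354 CPM. In monocyte-like cells Ccr1 was higher, with 54.1 CPM and 25.2 CPM, and so was Cxcr2, with 81 UMIs (12.9 CPM) and 0 UMIs, while Ccr2 (357 CPM and 638 CPM) lay between. In that class 27.8% of 8713 genes were higher and 9.03% lower. Cxcr2 is in the neutrophil marker set, and the monocyte-like cluster labelled P180 held as many neutrophil as monocyte markers, which limits this comparison. Cxcr6, the receptor of Cxcl16, was highest in NK cell-like and T cell-like cells labelled E18.5, both at 211 CPM, and was 151 CPM in the 17 NK cell-like cells labelled P180. Cxcl16 itself was 1.84 CPM in the NK cell-like and 0.676 CPM in the T cell-like cells labelled E18.5. Ccr4, the receptor of Ccl22, was 22.7 CPM in T cell-like cells, and Ccr3, that of Ccl24, 22.9 CPM in macrophage-like cells labelled E18.5.

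Of 27 other chemokine ligands, 26 are in the gene table. With the P180 label the highest of them were Cxcl12, the stromal ligand that holds blood progenitors in their niche, at 1371 CPM in 43 mesenchymal-like cells, and Xcl1 and Cxcl10, at 424 CPM and 418 CPM in the 17 NK cell-like cells. With the E18.5 label they were Cxcl12 at 2575 CPM in mesenchymal-like cells, Xcl1, which draws cross-presenting dendritic cells, at 2154 CPM in NK cell-like cells, and Cxcl9 at 654 CPM in monocyte-like cells. Cxcl9 and Cxcl10, both ligands induced by interferon-γ, differed in monocyte-like cells: Cxcl9 was 0.954 CPM labelled P180 and 654 CPM labelled E18.5 (log2 ratio -9.42), and Cxcl10 294 CPM and 218 CPM (0.43). In dendritic-like cells both were lower (-1.81 and -1.76), where 7.59% of 7940 genes were lower. In monocyte-like cells 3 of the 5 other ligands that reached the minimum were lower and none higher, where 9.03% of 8713 genes were lower and 27.8% higher. In neutrophil-like cells 1 of 2 was higher (Ccl25) and none lower, where 35.9% of 9621 genes were higher and 18.1% lower.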

How the data were processed

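The authors deposited unnormalized UMI counts from 10x 3′ v3 libraries. Per the file headers, Cell Ranger 7.1.0 wrote them. The genome mm10, Cell Ranger, edgeR, fastp, Seurat and Trimmomatic are listed without a role in the submitters' processing notes. Barcodes below 200 genes or 500 UMIs, or with 25% or more mitochondrial UMIs, were dropped, and the highest Scrublet scores (scanpy 1.11.5) were removed at 0.8% per 1000 barcodes. This kept 98.1% of barcodes labelled P180 and 47.8% of those labelled E18.5 before doublets. Scrublet's own threshold marked 0 and 79 barcodes, so doublets may remain. Each library was clustered on its own (2000 variable genes without any chemokine ligand, 30 components, 15 neighbours, Leiden resolution 1, leidenalg 0.10.2, Python 3.11.15). A cluster took the class, of 17 marker sets, with most markers (at least 3) among its 50 genes of highest fold. A tie went to the class with more among the first 10, a rule set after clusters were seen, and a cluster whose first 10 genes held at least 3 markers of another class, and more than of its own, stayed unnamed. Intervals are exact (binomial for shares, conditional on the summed Poisson counts for ratios) and cover counting error only. Against 0 UMIs, 3 counts over the class were used. No test between libraries was possible with 1 library per stage. The ratio and clustering steps were run on data simulated from the class profiles of these libraries with counting error alone. Such data lack the spread between cells seen here, and cannot test the class names. All 9 genes are described. The likeness measure used genes with at least 200 UMIs and was lowered for Ccl24, with 76. The members, the gene lists and the tests were chosen with earlier results of these data known. Promoters were found in the RefSeq table for 5 of the 9 genes. Some genes of the lists are not reported here.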

Additional observations from a re-analysis of the deposited data

Results flagged for a closer look

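Ccl22 stood in opposite directions in 2 classes: P180 over E18.5, on the log2 scale, was 3.91 in monocyte-like cells and -6.52 in dendritic-like cells. The difference between the classes was not tested, since each stage has 1 library. The first value rests on 68 UMIs in 2 cells labelled P180 and 1 UMI labelled E18.5. With no mitochondrial limit it is -0.75, but Ccl22 in monocyte-like cells labelled P180 is then below 0.90 CPM. That is too low to give a direction, and the higher level is not kept. The second rests on 1 UMI labelled P180 and 267 UMIs in 19 cells labelled E18.5.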

How the results depend on the processing

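No paired analysis was possible because each stage has 1 library. The number of lower ratios, 19 as reported, was 13 to 26 over 15 alternatives, of which 3 were chosen after seeing the data. The 13 came with a minimum of 200 UMIs and with tied clusters left unnamed, and the 26 with a minimum of 20 UMIs. The number of higher ratios, 1 as reported, was 2 with no minimum of genes per barcode, and 0 with chemokine ligand genes kept in clustering, with a minimum of 200 UMIs, with tied clusters left unnamed, or without the cell with the most UMIs of the gene in each class. The class with the highest level was kept for 16 to 18 of 18 genes and libraries, except with tied clusters left unnamed, where it was kept for 11. Of 238 recomputed ratios whose value differed from the reported one, 162 stayed within its interval, 71 moved further and 5 changed sign. With a mitochondrial limit of 10% and with no minimum of genes, 11 and 12 of 26 stayed within it. The sign changed for Cxcl16 in monocyte-like cells (0.59 with a mitochondrial limit of 10%, 0.47 with no minimum of genes), Ccl22 in monocyte-like cells (-0.75 with no mitochondrial limit), Ccl5 in monocyte-like cells (5.66 with no minimum of genes) and Ccl6 in neutrophil-like cells (0.059 in the Retnlg and Il1b clusters alone). The cause was not tested. The last setting left out the other neutrophil-like clusters, and Il1b, which follows Ccl6 closely, was among the genes that chose the clusters kept. With no mitochondrial limit, Ccl22 in monocyte-like cells labelled P180 was below 0.90 CPM, too low to give a direction. Depth limits Ccl24, Ccl22 and every class under 100 cells.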
